A study of Mus musculus with 11 samples.

Results

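Described here are 10 of the 48593 genes in a table of RNA sequencing of mouse germinal center B cells that lack either of a pair of related acetyltransferases, or neither. They are Cd44, Cd93, Ackr4, Akap12, Cdc42ep3, Chst15, Asah2, Arhgap8, Arhgap9 and Arhgap39. They were chosen by symbol because the table shows each of them above wild type in one knockout and below wild type in the other. All the comparisons between genotypes were therefore used in the choice, and the levels and fold changes of these genes are given as a description, with no test.

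The libraries came from germinal center B cells (B220+/PNA+/CD95+) sorted from mouse spleen 12 days after an intraperitoneal injection of sheep red blood cells. CBP-KO animals were Crebbpfl/fl;Ep300+/+;Cg1cre/+ (3 libraries), p300-KO animals were Crebbp+/+;Ep300fl/fl;Cg1cre/+ (3 libraries), and WT animals were Crebbp+/+;Ep300+/+;Cg1cre/+ (5 libraries). All of them carried the Cg1cre allele, a Cre recombinase expressed from the immunoglobulin gamma heavy chain locus once B cells have been activated, so deletion is limited to activated B cells, and the sort does not remove cells in which it failed. The labels call the WT animals littermates from the Crebbp crosses, none is labelled a littermate of the p300-KO animals, and age, sex and batch are not given.

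Crebbp encodes CBP and Ep300 encodes p300, large lysine acetyltransferases that transcription factors recruit to enhancers and promoters, where they acetylate histones and other proteins. Germinal centers are the sites in which activated B cells divide, mutate their antibody genes and are selected, moving between a dark zone and a light zone and leaving as plasma cells or memory cells. That traffic depends on adhesion molecules, chemokine receptors and small GTPases that control the actin cytoskeleton, which GTPase-activating proteins switch off.

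Each library held between 53550726 and 132861266 reads assigned to genes, and values are normalized read counts, that is reads divided by 1 size factor per library. Ep300 averaged 14466 ± 600.4 in p300-KO libraries and 21268 ± 1276 in WT libraries (SD, n = 3 and 5), a log2 fold change of -0.55 (limma, Benjamini-Hochberg adjusted p = 0.00015). Crebbp averaged 8247 ± 612 in CBP-KO libraries and 8866 ± 743 in WT libraries (log2 fold change -0.10, adjusted p = 0.459), and a count over the whole gene does not show whether the floxed exons were lost. All 14 germinal center B cell markers examined were above 0 in every library, with a summed normalized count between 603427 and 767271. Of these, 0 rose and 3 fell in CBP-KO, and 2 rose and 3 fell in p300-KO.

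The germinal center gene Rgs13, a regulator of G protein signalling, averaged 4942 ± 2953 in CBP-KO, 7621 ± 3069 in p300-KO and 15914 ± 1622 in WT libraries. It fell in CBP-KO (log2 fold change -1.84, limma adjusted p = 0.00391) and in p300-KO (-1.15, adjusted p = 0.0339). The p300-KO call of Rgs13 was lost under 8 of 21 other settings (adjusted p up to 0.155). Fas, whose product CD95 was a sort marker, fell by 0.34 in CBP-KO (adjusted p = 0.0137) and by 0.33 in p300-KO (adjusted p = 0.0118). Cd79a fell in CBP-KO (-0.33, adjusted p = 0.021) and Gcnt1 in p300-KO (-0.40, adjusted p = 0.00476), where S1pr2 rose (0.18, adjusted p = 0.0408). The call of S1pr2 was lost under 10 of the 21 settings. The call of Cd79a was lost without CBP-KO_53, CBP-KO_55 or WT_41 (adjusted p up to 0.119). That of Fas was lost in CBP-KO without CBP-KO_53 or CBP-KO_55 (up to 0.0718) and in p300-KO without p300-KO_289 (0.0577). The part of these marker changes in the levels of the 10 genes was not tested. The p300-KO_18 library held reads of both Xist and Y-linked genes, and values without it are given with those of the other settings. CBP-KO_1 had 106 normalized counts of Xist and 25051 of Y-linked genes. CBP-KO_53 and CBP-KO_55 had 189747 and 185604 of Xist and 0 of Y-linked genes. The p300-KO and WT groups also held libraries of each kind.

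Across the 16515 genes with a mean normalized count of at least 10, the limma fit at an adjusted p below 0.05 called 1380 genes in CBP-KO against WT (8.36%, made up of 3.48% higher and 4.88% lower). It called 1970 in p300-KO against WT (11.9%, with 5.84% higher and 6.09% lower) and 1556 in CBP-KO against p300-KO (9.42%, with 4.79% higher and 4.63% lower). In all, 48 genes (0.291%) were called in both knockouts against WT in opposite directions, 32 of them higher in CBP-KO and lower in p300-KO (0.194%) and 16 the other way round (0.0969%). Leaving out CBP-KO_53 gave 24 such genes, leaving out CBP-KO_55 gave 29 and leaving out WT_288 gave 31, while DESeq2 on the recovered reads gave 85. The 10 genes belong to those 48, and nothing is read from that count because they were picked by it. 7 of them were higher in CBP-KO and lower in p300-KO, namely Cd44, Cd93, Ackr4, Akap12, Cdc42ep3, Chst15 and Asah2. The other 3, all genes of GTPase-activating proteins, were lower in CBP-KO and higher in p300-KO. Both comparisons share the 5 WT libraries.

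For 7 of the 10 genes no library of any group overlapped with one of another group. Nothing is read from this count, because the same values were used in the choice of the genes. Of all tested genes, 134 (0.811%) had 3 groups without overlap and with WT in the middle, 90 of them with CBP-KO highest (0.545%) and 44 with p300-KO highest (0.266%). The overlaps among the 10 genes lay between CBP-KO and WT for Arhgap8 and Cdc42ep3, and between p300-KO and WT for Chst15.

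**Figure D1:**
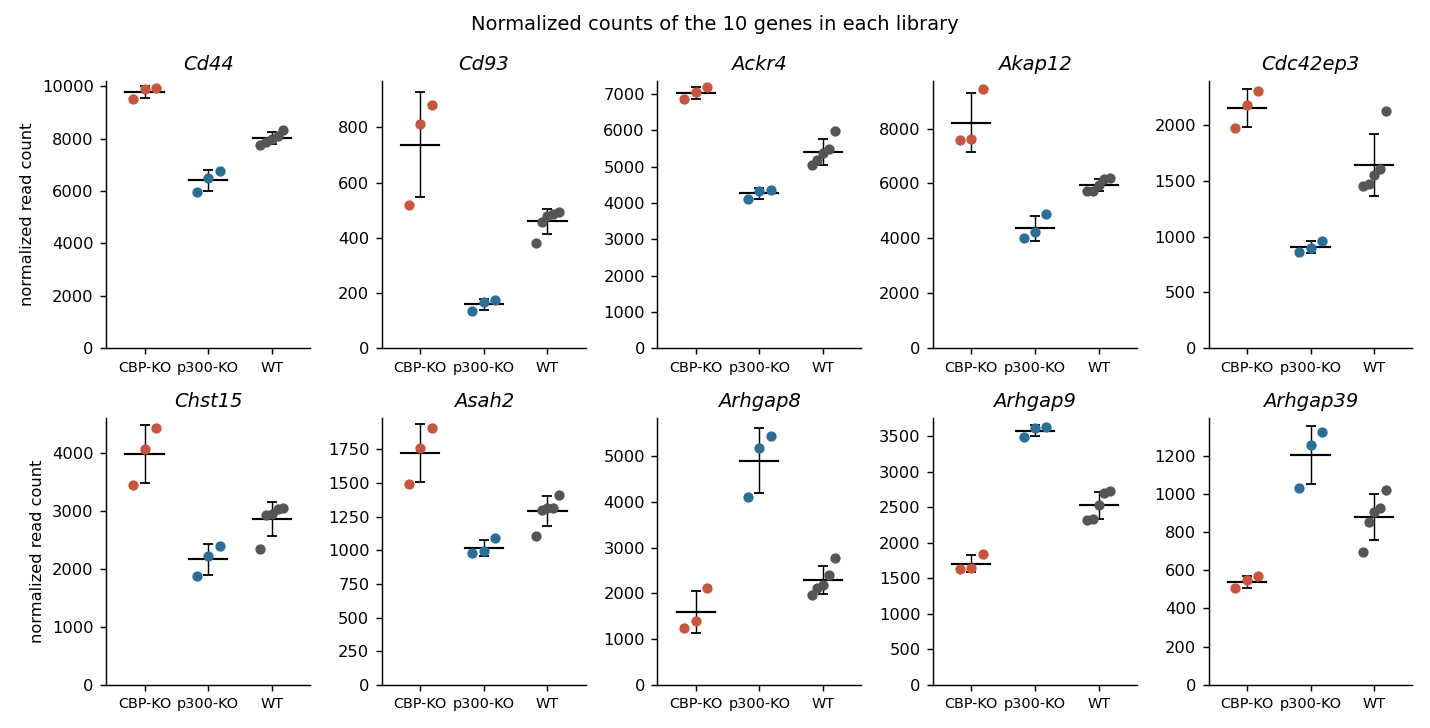
Normalized read count (vertical axis, linear, from 0) of the 10 genes in each of the 3 CBP-KO, 3 p300-KO and 5 WT libraries. Points are libraries and bars give the mean ± SD of a group. In the first 7 panels the CBP-KO points lie highest and the p300-KO points lowest, and in the 3 Arhgap panels the order is turned round, apart from the overlaps with WT in Arhgap8, Cdc42ep3 and Chst15.

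Upstream sequences of 5 of the 10 genes were found among the RefSeq promoters of GRCm38.p6, all from genes that were higher in CBP-KO and lower in p300-KO. The 250 bases before the start site are printed for 4 of them, the ones whose window holds no exon base of the gene itself, to show what stands upstream of genes that moved together. All 4 lie on the minus strand and are written 5′ to 3′ with the start site after the last base. They are chr2:102901666-102901915 for Cd44, chr17:79355092-79355341 for Cdc42ep3, chr7:132317229-132317478 for Chst15 and chr19:32103141-32103390 for Asah2. The Cdc42ep3 window lies within the span of the antisense lincRNA gene Gm17315 and the Chst15 window within the annotated spans of Fgfr2 and Gm10584. The Asah2 window lies within the annotated span of Asah2 itself (31982597 to 32108211), so it is upstream of that RefSeq start only. Capitals mark the AP-1 motif TGANTCA, which reads alike on both strands.
Cd44: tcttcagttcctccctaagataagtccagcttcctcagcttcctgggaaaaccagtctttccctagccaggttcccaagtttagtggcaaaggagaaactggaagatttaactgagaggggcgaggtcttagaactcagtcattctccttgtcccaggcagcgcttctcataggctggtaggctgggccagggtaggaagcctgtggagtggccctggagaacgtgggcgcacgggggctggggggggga
Cdc42ep3: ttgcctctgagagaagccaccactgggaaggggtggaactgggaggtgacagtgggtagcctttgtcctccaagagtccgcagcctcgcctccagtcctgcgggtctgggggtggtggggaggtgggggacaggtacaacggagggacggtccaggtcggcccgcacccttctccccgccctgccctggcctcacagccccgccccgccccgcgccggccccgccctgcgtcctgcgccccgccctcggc
Chst15: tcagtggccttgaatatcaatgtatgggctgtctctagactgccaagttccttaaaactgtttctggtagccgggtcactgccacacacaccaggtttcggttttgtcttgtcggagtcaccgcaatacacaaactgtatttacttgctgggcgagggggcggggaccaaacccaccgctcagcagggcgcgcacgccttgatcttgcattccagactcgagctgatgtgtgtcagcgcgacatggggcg
Asah2: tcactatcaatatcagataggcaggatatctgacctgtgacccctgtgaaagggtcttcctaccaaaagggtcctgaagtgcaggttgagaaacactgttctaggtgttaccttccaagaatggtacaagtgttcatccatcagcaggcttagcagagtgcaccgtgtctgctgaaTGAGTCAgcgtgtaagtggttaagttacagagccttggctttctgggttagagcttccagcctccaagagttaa

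Asah2 alone of these 4 windows held TGANTCA, which 6.75% of all 32851 promoter windows of this length hold. None of the 4 printed windows held the cyclic AMP response element TGACGTCA (1.55% of all windows), its core TGACG (17.8%, which counts the full element too) or the E-box CAGGTG (17.2%), searched on both strands. A second RefSeq start of Chst15, whose window overlaps exon bases of Chst15 and is not printed, holds TGACG at position -119 from that start, and the window of Ackr4, likewise not printed, holds none of these motifs. The windows differed in composition. Cdc42ep3 had 72.4% GC and 18 CpG, Chst15 54.8% GC and 14 CpG, Cd44 56.4% GC and 5 CpG, and Asah2 47.2% GC and 2 CpG, against medians of 52.4% GC and 6 CpG over all windows. A match or its absence describes only these letters in this window.

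Of the cell surface genes, Cd44 (chromosome 2, 102811141 to 102901665, minus strand, GRCm38) encodes the main receptor for hyaluronan, an adhesion glycoprotein of activated and memory lymphocytes. Its normalized count was 9921, 9517 and 9894 in the 3 CBP-KO libraries, 5972, 6482 and 6765 in the 3 p300-KO libraries, and 8092, 8347, 7889, 7756 and 8002 in the 5 WT libraries. Every CBP-KO library lay above and every p300-KO library below all WT libraries, and the spread within groups was small, with a coefficient of variation of 2.31% in CBP-KO, 6.27% in p300-KO and 2.78% in WT. The log2 fold change was 0.29 ± 0.05 (SE) in CBP-KO against WT, -0.33 ± 0.05 in p300-KO against WT and 0.61 ± 0.06 in CBP-KO against p300-KO. Of the 10 genes, Cd44 had the smallest CBP-KO change in size and the highest WT level per kilobase of exon.

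Cd93 (chromosome 2, 148436640 to 148443563, minus strand) encodes a C-type lectin-like membrane glycoprotein of early B cell precursors that in mice is also carried by plasma cells. It had 520.1, 879 and 812 normalized counts in CBP-KO libraries, 174, 136 and 166 in p300-KO libraries, and 459, 487, 478, 381 and 492.95 in WT libraries. The groups did not overlap, although CBP-KO_1 stood only just above the highest WT library and the others were well above it. The log2 fold change was 0.65 ± 0.17 in CBP-KO against WT and -1.53 ± 0.17 in p300-KO against WT. Between the knockouts it came to 2.18 ± 0.19, a ratio of means of 4.65 and the largest difference among the 10 genes. Cd93 was also the lowest of them in WT per kilobase of exon, and its p300-KO values rest on few reads, down to 130 in p300-KO_289.

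Ackr4 (chromosome 9, 104084157 to 104126933, minus strand) encodes an atypical chemokine receptor that takes up CCL19, CCL21 and CCL25 without signalling through G proteins. Its normalized counts were 7192, 7068 and 6863 in CBP-KO libraries, 4323, 4101 and 4371 in p300-KO libraries, and 5379, 5176, 5055, 5491 and 5979.8 in WT libraries. All 3 groups were apart, with CBP-KO highest and p300-KO lowest. The log2 fold changes against WT were of like size, 0.38 ± 0.06 in CBP-KO and -0.34 ± 0.06 in p300-KO. Of the exon bases of Ackr4, 8.9% also belong to another gene, all of them to Acad11 on the opposite strand, and the library kit does not keep strand.

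The scaffold gene Akap12 (chromosome 10, 4266380 to 4359470, plus strand) encodes an A-kinase anchoring protein that holds protein kinases A and C near the membrane and the cytoskeleton. It had 9455, 7589 and 7612 normalized counts in CBP-KO libraries, 4869, 4016 and 4216 in p300-KO libraries, and 6158, 5740.2, 6201, 5733 and 5937 in WT libraries. The groups were apart, and CBP-KO_1 was higher than the other two CBP-KO libraries. On the log2 scale the fold change was 0.46 ± 0.08 in CBP-KO against WT, -0.45 ± 0.08 in p300-KO against WT and 0.91 ± 0.09 between the knockouts.

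Cdc42ep3 (chromosome 17, 79333727 to 79355091, minus strand) encodes an effector that binds the active form of the GTPase Cdc42 and acts on septins and actin. It had 1973, 2309.6 and 2181 normalized counts in CBP-KO libraries, 899, 861 and 962 in p300-KO libraries, and 1459, 1611, 1469.9, 2125 and 1551 in WT libraries. All p300-KO libraries lay far below WT. The CBP-KO libraries overlapped with WT, because WT_46 stood above CBP-KO_1 while the other 4 WT libraries were below all of CBP-KO. On the log2 scale the fold change was 0.40 ± 0.11 in CBP-KO against WT, -0.84 ± 0.11 in p300-KO against WT and 1.25 ± 0.13 between the knockouts.

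A pair of genes encode enzymes of glycan and lipid metabolism. Chst15 (chromosome 7, 132235780 to 132317228, minus strand) encodes a sulfotransferase that adds a further sulfate to N-acetylgalactosamine in chondroitin sulfate. It had 4437, 4078 and 3450.0 normalized counts in CBP-KO libraries, 1886, 2219 and 2404 in p300-KO libraries, and 3043, 3050.4, 2349.6, 2935 and 2948 in WT libraries. CBP-KO was apart from WT, whereas p300-KO overlapped with WT in 1 place, where the low WT_41 library stood just under p300-KO_289. Its log2 fold change was 0.48 ± 0.11 in CBP-KO against WT and -0.40 ± 0.11 in p300-KO against WT. Other annotated genes share 17.9% of the exon bases of Chst15, the largest share among the 10.

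Asah2 (chromosome 19, 31982597 to 32108211, minus strand) encodes neutral ceramidase, which splits ceramide into sphingosine and a fatty acid. Its normalized counts were 1763, 1912 and 1489 in CBP-KO libraries, 993, 1088 and 979 in p300-KO libraries, and 1107, 1410.3, 1316, 1317 and 1297 in WT libraries. The 3 groups were apart by narrow margins, since CBP-KO_55 was close to the highest WT library and p300-KO_287 close to the lowest, WT_4. This gave a log2 fold change of 0.41 ± 0.10 in CBP-KO against WT, -0.34 ± 0.10 in p300-KO against WT and 0.75 ± 0.11 between the knockouts.

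The 3 genes of GTPase-activating proteins ran in the other direction, lowest in CBP-KO and highest in p300-KO. Arhgap8 (chromosome 15, 84720052 to 84772207, plus strand) encodes a GTPase-activating protein that also carries a BCH domain. It had 2112, 1253 and 1399.6 normalized counts in CBP-KO libraries, 5445, 4101 and 5181 in p300-KO libraries, and 2182, 2129, 1973, 2778 and 2409.7 in WT libraries. All p300-KO libraries lay above WT, while CBP-KO_1 lay within the WT range and the other two CBP-KO libraries below it. The log2 fold change was -0.56 ± 0.16 in CBP-KO against WT and 1.10 ± 0.16 in p300-KO against WT, where the ratio of means was 2.14. Its coefficient of variation in CBP-KO, 28.9%, was the largest of any gene and group here.

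Arhgap9 (chromosome 10, 127321964 to 127329943, plus strand) encodes a GTPase-activating protein found mainly in blood cells. Its normalized counts were 1626, 1845 and 1642 in CBP-KO libraries, 3488, 3612 and 3631 in p300-KO libraries, and 2703, 2534, 2730.0, 2325 and 2334 in WT libraries. The 3 groups were widely apart, and the p300-KO libraries varied by only 2.17%. The log2 fold changes were -0.57 ± 0.07 in CBP-KO against WT, 0.51 ± 0.07 in p300-KO against WT and -1.07 ± 0.08 between the knockouts.

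Arhgap39 (chromosome 15, 76723985 to 76818170, minus strand) encodes a GTPase-activating protein with WW domains that has been studied mostly in neurons. It had 567, 507 and 547 normalized counts in CBP-KO libraries, 1323, 1254 and 1031 in p300-KO libraries, and 1021, 907, 694, 851 and 923 in WT libraries. No libraries of different groups overlapped, but p300-KO_289 was only just above WT_4. Its log2 fold change was -0.69 ± 0.12 in CBP-KO against WT, which was the lowest CBP-KO value of the 10 genes, and 0.46 ± 0.12 in p300-KO against WT.

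**Figure D2:**
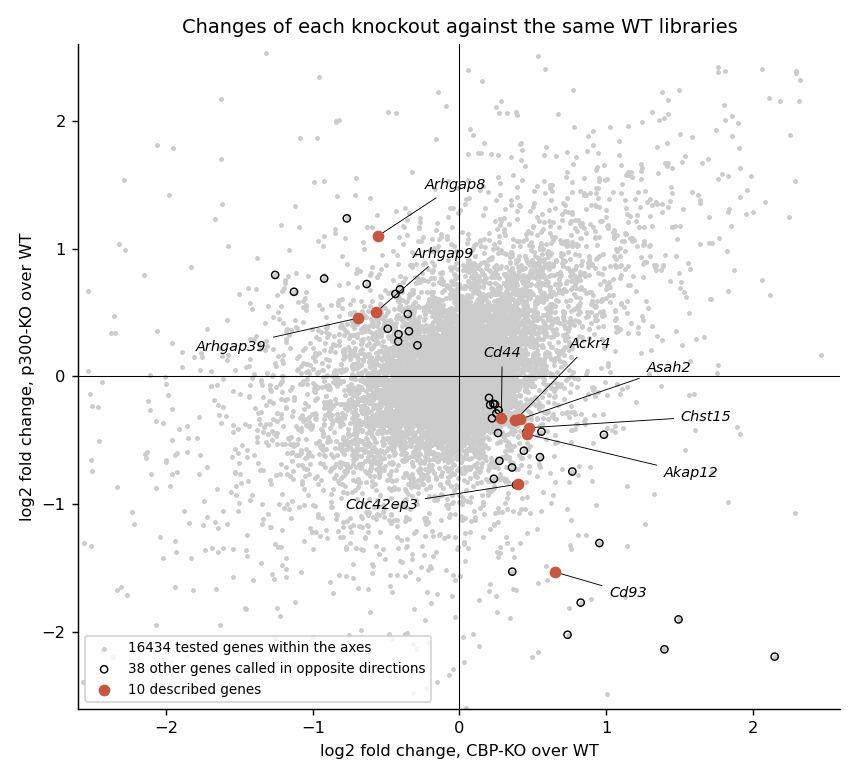
Log2 fold change in CBP-KO over WT (horizontal axis) and in p300-KO over WT (vertical axis) for 16434 of the tested genes, with 81 outside the axes. Filled red points are the 10 genes and open circles the 38 other genes called in opposite directions. The 7 genes of one direction lie at the lower right and the 3 Arhgap genes in the upper left, and both axes use the same 5 WT libraries.

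The plot of both fold changes shows how the 10 genes lie among the rest. The size of the change was larger in p300-KO than in CBP-KO for 4 of the 10 genes, Cd44, Cd93, Cdc42ep3 and Arhgap8. Cd93, Cdc42ep3 and Arhgap8 lay farthest from the diagonal of equal and opposite change. Opposite fitted signs as such were common, since 6460 of the tested genes (39.1%) had them, called or not.

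Per kilobase of merged exons, the levels of the 10 genes in the WT libraries ranged widely. Cd44 had 1443 normalized counts per kilobase in CBP-KO, 945 in p300-KO and 1183 in WT, and Ackr4 1309, 793 and 1007 in the same order of groups. At the low end of this scale stood Cd93 with 110 in CBP-KO, 23.8 in p300-KO and 68.8 in WT. Arhgap8 passed Arhgap9 only in p300-KO, where Arhgap8 had 1384 and Arhgap9 944.5 normalized counts per kilobase. In CBP-KO the same pair had 448 and 450.0, and in WT 647 and 667. The levels are bulk values, in which fewer cells of a type and less RNA per cell cannot be told apart.

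Deviations within groups were compared over pairs of the 10 genes. Over the 45 pairs, the correlation of deviations from the group means across the 11 libraries ran between -0.692 for Arhgap8 with Arhgap9 and 0.646 for Akap12 with Arhgap8. Among the 24 pairs of genes with the same direction the median was -0.083 and 8 were positive. Among the 21 pairs of opposite direction the median was -0.087 and 10 were positive. The genes of a library share its depth and sort, and the correlations are a description with no test.

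For each gene the 3 genes with the most similar pattern over the 11 libraries were taken from 12115 candidates, by Pearson r of log2 values, again as a description. The r values ran between 0.9371 and 0.9835, over 29 different genes, of which 11 are among the 48 called in opposite directions. Nearest to Cd44 was E2f2 (r = 0.9785), a cell cycle transcription factor, and nearest to Cd93 was Myl4 (0.9784), a myosin light chain. Akap12 and Ackr4 both had Slain1, a microtubule-binding protein, as their nearest gene (0.9835 and 0.9685). Cdc42ep3 was nearest to Mnd1 (0.9806) and Chst15 to Efr3a (0.9495). Asah2 was nearest to Bach2 (0.9636), a repressor that holds back plasma cell differentiation. For the Arhgap genes the nearest genes were Rbm47 for Arhgap8 (0.9466), Wdr81 for Arhgap9 (0.9801) and Bmyc for Arhgap39 (0.9709). The 3 group means enter each r, and the choice by r over the same libraries is no test.

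The tested genes next to the 10, or overlapping them, were not used in the choice, and they were compared with the same fit. Of 26 such neighbours, 3 were called in CBP-KO against WT (11.5%, beside 8.36% of all genes) and 8 in p300-KO against WT (30.8%, beside 11.9%). None of the 26 was called in opposite directions, a call made for 0.291% of all tested genes, so that a count of 0 says little of 26 genes. Thbd, which encodes thrombomodulin, a relative of CD93 in the same lectin family, lies 28452 bases from Cd93. It averaged 167 ± 6.12 in CBP-KO libraries, 52.7 ± 14.4 in p300-KO libraries and 49.2 ± 9.74 in WT libraries (SD, n = 3, 3 and 5). Thbd thus rose in CBP-KO (log2 fold change 1.77, limma adjusted p = 0.000639), while its p300-KO change was 0.09 (adjusted p = 0.86).

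The neighbour of Asah2, Sgms1, which makes sphingomyelin from ceramide, fell in p300-KO (log2 fold change -0.44, limma adjusted p = 0.00764) and had 0.07 in CBP-KO (adjusted p = 0.713). Acad11, which overlaps Ackr4 on the other strand, rose in both knockouts, by 0.31 in CBP-KO (adjusted p = 0.0296) and 0.29 in p300-KO (adjusted p = 0.0349). Its direction therefore matched that of Ackr4 in CBP-KO only. Zfp251, beside Arhgap39, also rose in both, by 0.21 in CBP-KO (adjusted p = 0.0368) and 0.20 in p300-KO (adjusted p = 0.0343). In p300-KO, Mthfd1l beside Akap12 fell (-0.34, adjusted p = 0.00454), and R3hdm2 beside Arhgap9 (0.24, adjusted p = 0.0226) and Qpct beside Cdc42ep3 (1.49, adjusted p = 0.039) rose.

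Of 5 genes that overlap one of the 10 on the opposite strand, 4 had fitted signs like those of that gene in both comparisons, and Acad11 did not. The share of like signs among other overlapping genes was not counted, so nothing is read from this. Gm17315, a lincRNA gene opposite the start of Cdc42ep3, averaged 136 ± 12.1 in CBP-KO, 50.9 ± 6.99 in p300-KO and 99.2 ± 17.1 in WT libraries. It fell in p300-KO (log2 fold change -0.94, limma adjusted p = 0.00589), with 0.46 in CBP-KO (adjusted p = 0.155). Gm20556, a lincRNA gene opposite the start of Arhgap8, rose in p300-KO (0.84, adjusted p = 0.0285) and had -0.70 in CBP-KO (adjusted p = 0.0758). Gli1, whose end overlaps that of Arhgap9, is a low gene, with means of 9.3 in CBP-KO, 35.8 in p300-KO and 21.6 in WT libraries. It had -1.19 in CBP-KO (adjusted p = 0.0646) and 0.73 in p300-KO (adjusted p = 0.234). Gm47000, which lies opposite Ackr4 and shares no exon base with it, had 0.49 in CBP-KO (adjusted p = 0.357) and -0.08 in p300-KO (adjusted p = 0.905). With an SE of 0.29, the p300-KO sign of Gm47000 is not settled. Reads of a gene and of its antisense partner cannot be told apart in an unstranded library, and the shared exon bases were 188 for Cdc42ep3, 76 for Arhgap8 and 62 for Arhgap9.

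**Figure D3:**
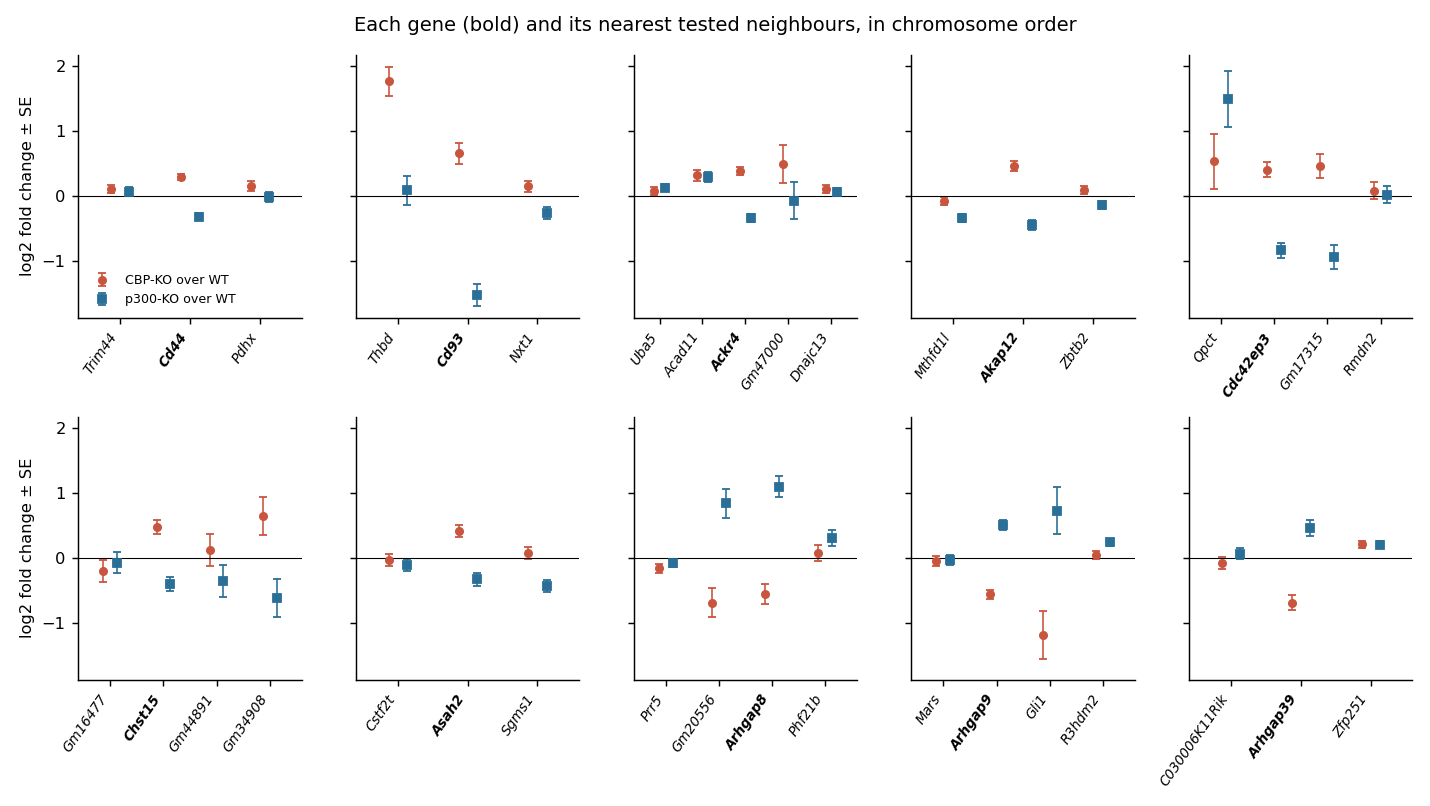
Log2 fold change ± SE (vertical axis) of each of the 10 genes, in bold, and of its nearest tested neighbours in chromosome order (horizontal axis), for CBP-KO over WT (red circles) and p300-KO over WT (blue squares). Most protein-coding neighbours lie near 0 in both comparisons, Thbd beside Cd93 is high in CBP-KO, and the antisense genes Gm17315, Gm20556, Gli1 and Gm47000 lie on the same sides of 0 as the gene they overlap.

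A pair of the Arhgap genes lie on chromosome 15, the chromosome of Ep300. Arhgap8 is 3.07 Mb and Arhgap39 4.77 Mb from it. Among the 173 tested genes within 5 Mb of Ep300, the p300-KO libraries had 14 higher and 28 lower genes by the limma fit (24.3%), against 12.0% of all 16378 genes with a position. In CBP-KO the same 173 genes had 5 higher and 17 lower (12.7%, against 8.4%). The part of this position in the Arhgap8 and Arhgap39 levels was not tested.

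Other genes of the pathways to which the 10 belong were examined in 9 lists, 8 of which are described singly and which leave out the 10 genes themselves. Of 196 different tested genes, 12 rose and 16 fell in CBP-KO (14.3% called), and 24 rose and 20 fell in p300-KO (22.4% called). The shares called over all tested genes were 8.36% in CBP-KO and 11.9% in p300-KO, and the counts of each list stand against these. Without CBP-KO_55 or CBP-KO_53 the calls in CBP-KO numbered 13 or 16 in place of 28, and without p300-KO_18 or p300-KO_289 those in p300-KO numbered 24 or 29 in place of 44. None of the 196 was called in opposite directions, which at 0.291% of all tested genes is near the background. List medians are set beside the medians of all tested genes, 0.01 in CBP-KO and -0.01 in p300-KO on the log2 scale.

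Among 37 other genes of GTPase-activating proteins, 0 rose and 7 fell in CBP-KO (median log2 fold change 0.08), and 6 rose and 6 fell in p300-KO (median 0.05). Arhgap29 averaged 728 ± 36.8 in CBP-KO, 244 ± 23.7 in p300-KO and 589 ± 91.1 in WT libraries. It fell in p300-KO (log2 fold change -1.26, limma adjusted p = 0.000106). Arhgap26 fell in both, by 0.29 in CBP-KO (adjusted p = 0.00824) and by 0.39 in p300-KO (adjusted p = 0.00102), and Arhgap32 likewise fell in CBP-KO (-1.63, adjusted p = 0.00779) and in p300-KO (-1.94, adjusted p = 0.00215). Tagap, a GTPase-activating protein of activated lymphocytes, fell in CBP-KO (-0.77, adjusted p = 0.0101), as did the low gene Srgap3 (-2.46, adjusted p = 0.00439).

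Of 19 A-kinase anchoring and protein kinase A genes, 3 rose and 0 fell in CBP-KO (median -0.03), and 3 rose and 2 fell in p300-KO (median 0.09). The catalytic subunit gene Prkaca rose in CBP-KO (log2 fold change 0.35, limma adjusted p = 0.00461) and in p300-KO (0.22, adjusted p = 0.0394), and the regulatory subunit gene Prkar2a did so too (0.39, adjusted p = 0.0115, and 0.30, adjusted p = 0.0344). The protein kinase A inhibitor gene Pkig averaged 13838 ± 211 in CBP-KO, 11689 ± 650.0 in p300-KO and 15232 ± 1020 in WT libraries and fell in p300-KO (-0.38, adjusted p = 0.00167).

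Among 13 chemokine receptors and ligands, 1 rose and 4 fell in CBP-KO (median -0.46), and 2 rose and 2 fell in p300-KO (median 0.14). Cxcr5, the receptor that brings B cells into follicles, fell in both, with 13446 ± 1271 in CBP-KO, 13760.5 ± 820.2 in p300-KO and 18606 ± 2180 in WT libraries (log2 fold change -0.47, adjusted p = 0.009, and -0.43, adjusted p = 0.0103, limma). Ccl22, a ligand that attracts CCR4-bearing T cells, rose in both (1.495, adjusted p = 0.0378, and 2.24, adjusted p = 0.00368). Ccr6, a receptor of naive and memory B cells, fell in CBP-KO (-0.98, adjusted p = 0.0271).

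In the chondroitin sulfate list of 22 genes, 2 rose and 1 fell in CBP-KO (median 0.06), and 2 rose and 2 fell in p300-KO (median 0.08). The low genes Dse and Dsel encode epimerases that turn chondroitin into dermatan sulfate. Dse rose in both knockouts (log2 fold change 1.40, adjusted p = 0.0484 in CBP-KO and 2.63, adjusted p = 0.00132 in p300-KO, limma) and Dsel in CBP-KO (1.54, adjusted p = 0.0235). Srgn, the granule proteoglycan serglycin, fell in both (-0.35, adjusted p = 0.0371, and -0.38, adjusted p = 0.0182).

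In the ceramide list of 31 genes, 1 rose and 0 fell in CBP-KO (median -0.01), and 3 rose and 3 fell in p300-KO (median 0.07). Galc, which removes galactose from galactosylceramide, rose in both (log2 fold change 1.25, adjusted p = 0.00352 in CBP-KO and 1.03, adjusted p = 0.00768 in p300-KO, limma). Besides Sgms1, Ugcg, which makes glucosylceramide, fell in p300-KO (-0.30, adjusted p = 0.0178).

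Among 14 hyaluronan and CD44 partner genes, 1 rose and 1 fell in CBP-KO (median -0.01), and 3 rose and 0 fell in p300-KO (median 0.08). Rdx, encoding radixin, which links CD44 to actin, averaged 4553 ± 919 in CBP-KO, 4080.3 ± 579 in p300-KO and 1603 ± 582 in WT libraries. It rose in both (log2 fold change 1.59, adjusted p = 0.00673, and 1.45, adjusted p = 0.00827, limma). Nf2, whose product merlin binds the tail of CD44, rose in p300-KO (0.43, adjusted p = 0.00172), and Cd74, the invariant chain, fell in CBP-KO (-0.51, adjusted p = 0.00204).

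The CD93 family and C1q binding list had 6 tested genes. Besides Thbd, Gipc1, whose product binds the tail of CD93, rose in p300-KO (log2 fold change 0.33, limma adjusted p = 0.00476) and Cd59a fell there (-1.26, adjusted p = 0.00776).

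Of 26 plasma cell, memory and naive B cell genes, 2 rose and 3 fell in CBP-KO (median -0.07), and 3 rose and 1 fell in p300-KO (median 0.03). Irf4, needed for plasma cells, averaged 2332 ± 311 in CBP-KO, 4134 ± 689.5 in p300-KO and 3865 ± 431 in WT libraries and fell in CBP-KO (log2 fold change -0.73, limma adjusted p = 0.0029). Bach2 rose in CBP-KO (0.38, adjusted p = 0.0165) and had -0.28 in p300-KO (adjusted p = 0.0506). Zbtb32 fell in CBP-KO (-1.15, adjusted p = 0.0122). Slamf7 also rose in CBP-KO (0.26, adjusted p = 0.0219) and had -0.18 in p300-KO (adjusted p = 0.0769). The plasma cell genes Xbp1 and Sdc1 rose in p300-KO (0.48, adjusted p = 0.000231, and 1.60, adjusted p = 0.000886), and Itga4 fell (-0.48, adjusted p = 0.00513). In CBP-KO, Xbp1 had 0.03 (adjusted p = 0.842) and Sdc1 0.74 (adjusted p = 0.0646), the same sign as in p300-KO.

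**Figure D4:**
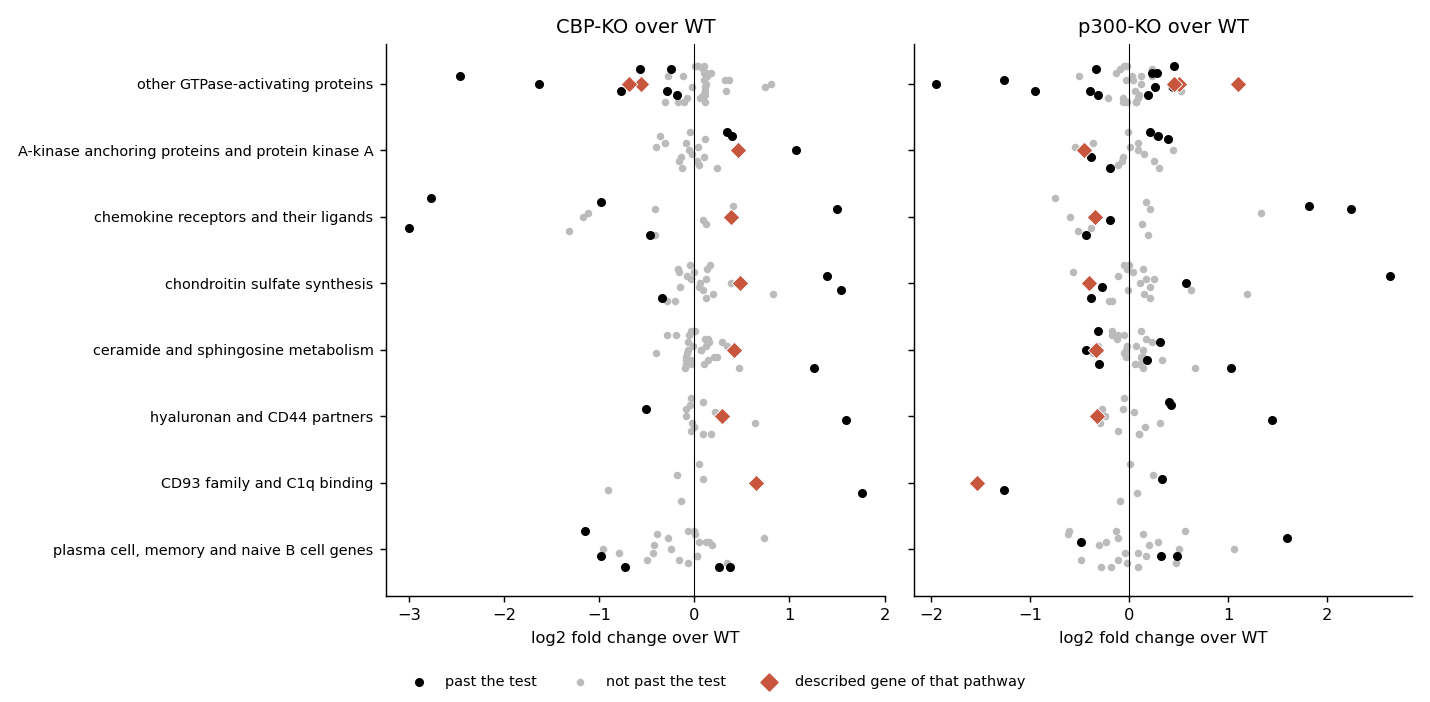
Log2 fold change (horizontal axis) of the tested genes of 8 pathway lists, one row a list, in CBP-KO over WT (left) and p300-KO over WT (right). Black points passed the limma test, grey points did not, and red diamonds are the described genes of that pathway, which are not in the lists. Diamonds change sides between the panels, while none of the other genes plotted was called on both sides.

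All the calls named for these pathway genes and neighbours kept their direction under each other setting that could be run for them, 21 in all and 20 for Dse and Qpct, but some did not keep their side of the threshold. In CBP-KO against WT, the limma call of Tagap was lost without CBP-KO_53 or CBP-KO_55 (highest adjusted p = 0.0628). Those of Bach2 and Slamf7 were lost without CBP-KO_1 or CBP-KO_53 (0.101 and 0.0916). That of Zbtb32 was lost without CBP-KO_53 (0.067), and those of Prkar2a and Cxcr5 without CBP-KO_55 (0.0566 and 0.0575). In p300-KO against WT, the calls of Ugcg and Srgn were lost without p300-KO_18 or p300-KO_287 (highest adjusted p = 0.119 and 0.109), and that of R3hdm2 without p300-KO_287 or p300-KO_289 (0.0972).

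Weaker still were the CBP-KO calls of Dse (lost under 12 of 20 settings), Zfp251 (10 of 21), Srgn (8), Ccl22 (7), Acad11 and Ccr6 (5 each) and Dsel (4), with adjusted p up to 0.243. The same holds for the p300-KO calls of Prkaca (10), Acad11 and Zfp251 (9 each), Gm20556 (8), Qpct (8 of 20) and Prkar2a (6), with adjusted p up to 0.183. The calls of Thbd, Sgms1, Gm17315, Arhgap29, Arhgap26, Arhgap32, Galc, Rdx, Nf2, Cd74, Irf4, Xbp1 and Sdc1 held under all 21.

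Markers of other cells moved with the groups too. Over 18 macrophage and monocyte markers the summed normalized count was 2379 to 3304 in CBP-KO, 2960 to 3953 in p300-KO and 4038 to 10082 in WT libraries. Of the 12 tested, 5 fell in CBP-KO and 1 in p300-KO. The 15 T cell markers summed to 9859 to 10648 in CBP-KO, 10927 to 11538 in p300-KO and 15599 to 18669 in WT libraries, most of it from Lck, Cd2 and Cd247, while Cd3e was at 0 in 9 of the 11 libraries and 5.12 at most. Both sums were lower in both knockouts than in WT, so they do not change sides as the 10 genes do.

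The endothelial and stromal sum did change sides, with 2889 to 3020 in CBP-KO, 4531 to 5013 in p300-KO and 3421 to 4302 in WT libraries. It consists almost wholly of Pecam1, which B cells also express and which is itself one of the 38 other genes (log2 fold change -0.42 in CBP-KO and 0.27 in p300-KO). Of the 12 markers of that list, 5 were at 0 in every library, namely Tie1, Emcn, Pdpn, Col1a2 and Col3a1. The NK cell and neutrophil markers summed to 26.2 at most in any library, with 4 of 10 at 0 throughout. The part of these cells in the levels of the 10 genes was not tested.

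How far single fold changes moved when the libraries and the processing were varied is shown for the 10 genes beside each other. Under 21 other settings, 11 of which leave out 1 library each, all fold changes of the 10 genes kept their sign. Cd44, Ackr4, Akap12 and Arhgap9 were also called in opposite directions under each of the 21. The least stable calls were those of Arhgap8, not called under 15 of the 21, Cdc42ep3, not called under 13, and Asah2, not called under 11. With a term for high or low Xist, 9 of the 10 genes were called in opposite directions, all but Arhgap8.

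Without p300-KO_18, the library with both Xist and Y-linked reads, the log2 fold changes in p300-KO against WT were -0.28 for Cd44, -1.60 for Cd93, -0.35 for Ackr4, -0.53 for Akap12 and -0.84 for Cdc42ep3. They were -0.30 for Chst15, -0.32 for Asah2, 1.02 for Arhgap8, 0.52 for Arhgap9 and 0.38 for Arhgap39, so each gene kept its sign. Single libraries moved some values in the other comparison. Without CBP-KO_1, the fold change in CBP-KO against WT was 0.88 for Cd93 and -0.78 for Arhgap8, and without WT_46 that of Cdc42ep3 was 0.50.

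**Figure D5:**
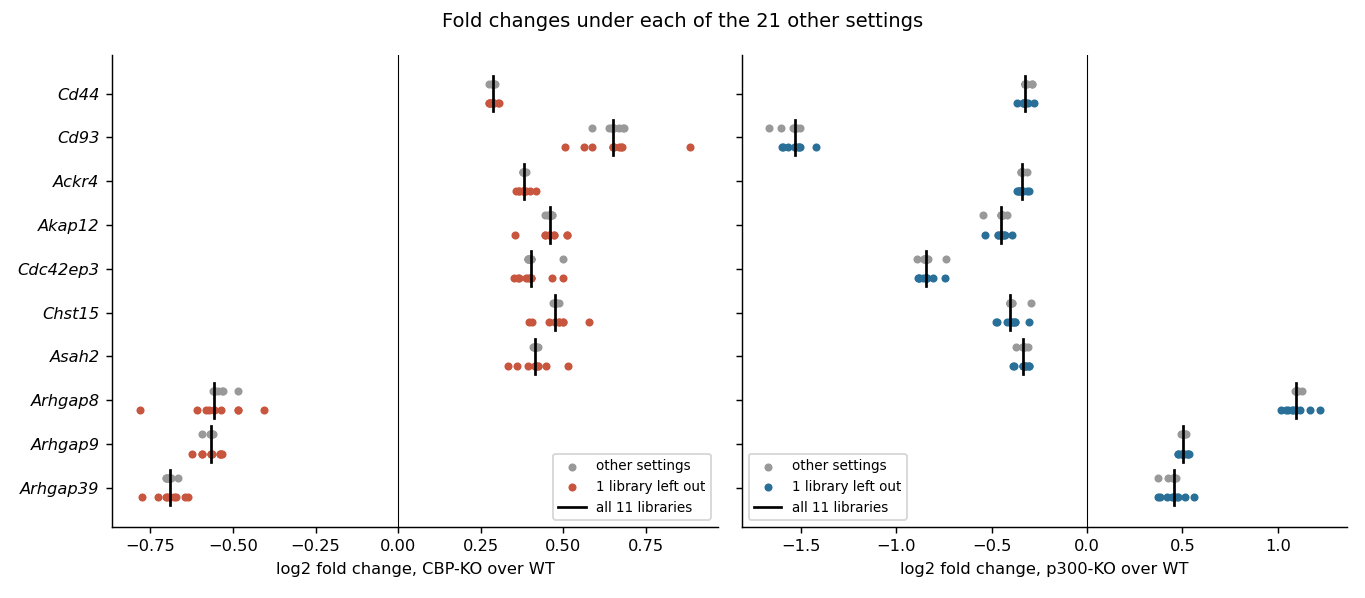
Log2 fold change of the 10 genes (one row each) in CBP-KO over WT (left) and p300-KO over WT (right) under each of 21 other settings. Black lines give the value from all 11 libraries, and coloured points leave out 1 library each. Grey points use another normalization, pseudocount, filter, test or covariate, or leave out WT_46 with p300-KO_18. No point crosses 0, and Cd93 and Arhgap8 have the widest ranges in CBP-KO.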

How the data were processed

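RNA was sequenced from 3 CBP-KO, 3 p300-KO and 5 WT libraries, grouped by the labels. Per the labels' protocols, total RNA was made into libraries with a TruSeq RNA kit that does not keep strand. The submitters' processing notes name CASAVA 1.8, HISAT2, featureCounts, DESeq2 and the build mm10, with no settings. The table holds deposited signal values, named as DESeq2 normalized: the authors divided reads per gene by a size factor for each library. Dividing a column by its lowest value above 0 gave integers for 100% of values (tolerance 1e-06), so whole reads were recovered. 22043 genes were 0 in all libraries, and 0 columns were left out.

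Testing covered the 16515 genes averaging 10 or more over all libraries and used limma 3.58.1 with a variance trend on log2(value + 1), a mean for each group and no other term. Tests were two-sided, and calls used a Benjamini-Hochberg adjusted p under 0.05. Fold changes are on that scale, which understates those of low genes. Nothing in the labels says more on how the samples of a group are related, so p-values measure the spread between them. The 10 genes and the gene lists were chosen with earlier results of these data known. Of each list, up to 4 called genes with the smallest p in either knockout could be named, plus neighbours and the 3 genes most like each of the 10. Positions come from GENCODE on GRCm38, the build of mm10. Promoters come from RefSeq on GRCm38.p6. Of the 9 lists, 1 is not reported here on its own.

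Alternatives changed the normalization (quantile, TMM), the pseudocount (0.5, 5), the filter (none, mean of 50) and the test (edgeR 4.0.16 and DESeq2 1.42.0 on recovered reads), added a term for Xist, left out WT_46 with p300-KO_18, or left out each library. The procedure was tested on simulated data. Software was R 4.3.3, Python 3.11.15, pandas 2.3.3 and matplotlib 3.10.9.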

Additional observations from a re-analysis of the deposited data

Results flagged for a closer look

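Of 16 sets of 5 WT values examined, 3 had a library far from the other 4, where chance gives about 1 in 20. Cdc42ep3 was 2125 normalized counts in WT_46, beside 1459 to 1611 in the other WT libraries, the gap being 0.772 of the range. Chst15 was 2349.6 in WT_41, beside 2935 to 3050.4 in the others (0.835 of the range). The summed macrophage and monocyte markers were 10082 in WT_46, beside 4038 to 5547 in the others (0.75 of the range).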

How the results depend on the processing

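All 630 values of the 30 fold changes of the 10 genes, 21 alternatives each, kept their sign and moved by less than the spread between replicates. A group mean cannot move by as much as the spread of its group when a single library is left out. For those settings the comparison with the spread was bound to hold, and nothing is read from it. In CBP-KO against WT, Cd93 ranged between 0.51 and 0.88 and Arhgap8 between -0.78 and -0.41 on the log2 scale. Calls moved more. On the recovered reads edgeR called 1323 genes in CBP-KO against WT, 1961 in p300-KO against WT, 1525 between the knockouts and 46 in opposite directions. DESeq2 called 2337 genes in CBP-KO against p300-KO (1556 in limma) and 85 in opposite directions (48 in limma). Without WT_46 and p300-KO_18, 28 of the pathway genes were called in p300-KO (44 with them). Of the 10 genes, the number called in opposite directions was between 5 and 10, being 5 without CBP-KO_53, without p300-KO_18, and without WT_46 and p300-KO_18 together, 8 with edgeR and 10 with DESeq2. Arhgap39 was not called under 3 of the 21 alternatives, Cd93 under 5 and Chst15 under 8.

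Leaving out each library in turn gave 642 to 1541 genes in CBP-KO against WT (642 without CBP-KO_55, 655 without CBP-KO_53), 1169 to 2027 in p300-KO against WT (1255 without p300-KO_18, 1248 without p300-KO_287, 1169 without p300-KO_289) and 745 to 1954 between the knockouts (745 without CBP-KO_55, 862 without CBP-KO_53, 849 without p300-KO_18, 906 without p300-KO_287). Genes called in opposite directions numbered 24 to 58 (24 without CBP-KO_53, 29 without CBP-KO_55, 31 without WT_288). Called pathway genes numbered 13 to 29 in CBP-KO (13 without CBP-KO_55, 16 without CBP-KO_53) and 24 to 44 in p300-KO (24 without p300-KO_18, 29 without p300-KO_289). Fewer samples enter these fits, and for the other alternatives the cause was not tested. No paired analysis was possible because no replicate number occurs in more than 1 group.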
